A study of Mus musculus with 7 samples.

Results

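The 120 genes examined here are the protein-coding genes in the table named Zfp700 to Zfp999, out of 17537 listed genes, of which 15653 are protein-coding. They were chosen by name alone, so the group is one of names and not of shared function. Messenger RNA of renal tissue was sequenced in 7 C57BL/6 mice, with 1 library per mouse. There were 3 nondiabetic controls (C, replicates 2, 8 and 9). Streptozotocin had made the other 4 mice diabetic, of which 2 stayed untreated (DM-22, numbered 1 and 2) and 2 were treated with dapagliflozin, an inhibitor of the glucose transporter SGLT2 (DM+SGLT2i, also numbered 1 and 2). Streptozotocin, a toxin of the insulin-producing beta cell, was given at 60 mg/kg on 5 days to mice aged 8 to 10 weeks, and the controls received the citrate buffer. Dapagliflozin, at 25 mg/kg in the drinking water, was started at week 16 and given for 6 weeks, and the experiment ended at week 22. The labels give male mice, whereas the study's methods name both sexes. The study asked which changes in kidney gene expression persist once blood glucose has been lowered.

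Most mouse proteins named Zfp are zinc finger proteins, in which a short loop held by a zinc ion reads a few bases of DNA, and fingers in a row read a longer site. Many carry an N-terminal KRAB domain. This domain binds TRIM28, a scaffold that brings in the histone methyltransferase SETDB1, heterochromatin proteins and DNA methylation, and so silences the bound site. KRAB zinc finger genes arose by repeated local duplication, lie in clusters of similar genes, and are best known for silencing retrotransposons and guarding imprinted genes. They are usually weakly expressed in adult tissues.

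Zfp810 (ENSMUSG00000066829, GRCm38, chromosome 9, 22276748 to 22307648, minus strand) is the member with which the others were compared. The coding sequence of 1 of its fingers, with the linker that joins it to the next finger, is shown because most members encode units of this kind, although no finger was found in 5 of the 120 (Zfp703, Zfp781, Zfp839, Zfp935 and Zfp972). It covers residues 184 to 209 and was read from the GENCODE M21 transcripts. Capitals mark the codons of the 2 cysteines and 2 histidines that hold the zinc.
Zfp810 finger: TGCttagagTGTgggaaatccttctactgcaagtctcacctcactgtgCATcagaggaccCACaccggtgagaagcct
The windows from 250 bases before to 50 after the transcript start of 3 members (RefSeq, GRCm38.p6) are shown because the levels of Zfp810 and Zfp945 were alike across libraries and because Zfp966 and Zfp967 share the same letters at all 300 positions. The Zfp810 window is chr9:22307589-22307888 (minus strand), that of Zfp945 is chr17:22867085-22867384 (minus strand) and that of Zfp966 is chr2:175931051-175931350 (minus strand). Capitals mark matches, on either strand, to GGGCGGG, the box bound by SP factors, and to CCGGAAG, the core bound by ETS factors.
Zfp810: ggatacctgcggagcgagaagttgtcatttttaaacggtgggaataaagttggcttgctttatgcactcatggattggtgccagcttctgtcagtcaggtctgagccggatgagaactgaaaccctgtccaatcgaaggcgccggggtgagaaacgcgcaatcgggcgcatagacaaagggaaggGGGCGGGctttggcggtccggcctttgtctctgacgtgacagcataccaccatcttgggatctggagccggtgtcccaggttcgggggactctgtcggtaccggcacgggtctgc
Zfp945: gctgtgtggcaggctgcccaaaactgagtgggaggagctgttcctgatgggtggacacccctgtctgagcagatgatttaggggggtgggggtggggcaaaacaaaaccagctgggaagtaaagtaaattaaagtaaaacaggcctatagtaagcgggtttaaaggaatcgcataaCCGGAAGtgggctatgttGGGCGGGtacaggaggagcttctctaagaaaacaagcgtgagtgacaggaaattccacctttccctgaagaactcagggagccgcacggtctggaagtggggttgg
Zfp966: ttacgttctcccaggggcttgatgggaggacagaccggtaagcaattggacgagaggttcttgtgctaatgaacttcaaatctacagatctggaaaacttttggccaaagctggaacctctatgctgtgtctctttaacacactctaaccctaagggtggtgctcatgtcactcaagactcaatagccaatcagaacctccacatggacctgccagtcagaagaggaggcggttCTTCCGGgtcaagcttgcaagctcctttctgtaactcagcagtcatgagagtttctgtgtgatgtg

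RefSeq windows were found for 102 of the 120 members, 119 windows in all. The ETS core CCGGAAG stood in 18.5% of the members' windows (18 genes), in 24.9% of those of the other numbered Zfp genes and in 8.86% of all 32851 windows. The SP box GGGCGGG stood in 33.6% of the members' windows and in 25.6% of all windows. The YY1 core ATGGCGGC (5.88% against 2.24%) and the NRF1 core GCGCATGC (2.52% against 2.71%) were rarer. No 2 of these motifs are the same letters, and both strands were read. A match is a run of letters and not a measured binding site. The median number of CG pairs per window was 9 in members and 7 in all windows.

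Reading the GENCODE M21 coding sequences, 105 of the 120 members encode at least 5 zinc fingers, with a median of 11 and a maximum of 23 (Zfp748 and Zfp788). Letters resembling the first KRAB box were found in 97 members and were not found in 23, among them Zfp703, Zfp706, Zfp740, Zfp768, Zfp771 and Zfp830. The 97 members had a median of 11 fingers and the 23 others a median of 6. Of the 120 members, 74 lie in 10 clusters, here chains of at least 4 members with starts at most 1 Mb apart. The larger clusters are on chromosome 4 (145510759 to 147848366, 14 members), chromosome 17 (21567008 to 22867134, 13 members) and chromosome 2 (174643534 to 178078476, 11 members).

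Copies within clusters limit what can be said of single genes. In 56 members at least 5% of all stretches of 50 exonic bases also occur in another gene, and in 18 members at least 50% do. Every stretch of Zfp967 occurs in Zfp966, and 83.2% of those of Zfp965 occur in Zfp973. Reads of such genes cannot be assigned with certainty, so their values are uncertain. Of the members named here this holds, at 5% or more, for Zfp706, Zfp747, Zfp758, Zfp764, Zfp781, Zfp931, Zfp935, Zfp937, Zfp959, Zfp960, Zfp965, Zfp966, Zfp967, Zfp968, Zfp969, Zfp970, Zfp972, Zfp973, Zfp975, Zfp976, Zfp979, Zfp980, Zfp981, Zfp982, Zfp985, Zfp986, Zfp987, Zfp989, Zfp990, Zfp992, Zfp993 and Zfp994, with shares from 5.81% (Zfp758) to 100%. It also holds for Zfp971, at 51.1%. Zfp810, Zfp809, Zfp867 and Zfp949 share no stretch with any other gene.

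Of the 120 members, 106 had at least 1 CPM (reads scaled to a common library size) in at least 2 libraries and entered the test, with 13976 genes in all. The 14 members below this level reached at most between 0.108 and 1.15 CPM in any library, and include Zfp985, Zfp986, Zfp987, Zfp989 and Zfp990 of the chromosome 4 cluster. Together the 120 members took between 0.154% and 0.206% of the reads. Per kilobase of exon, the mean level over 7 libraries had a median of 2.25 CPM per kb in the tested members, 1.64 in 210 other tested genes named Zfp with a number and 4.91 in all tested genes. The spread is wide. Zfp981 stood first with 106 CPM per kb (40% of its stretches are shared with other genes), followed by Zfp706, a small protein with 1 finger, at 61.7, then Zfp768 at 15.4, Zfp830 at 13.8 and Zfp809, which silences proviral DNA through TRIM28, at 11.9. The lowest tested members were Zfp786 at 0.145, Zfp964 at 0.187 and Zfp711, an X-linked gene mutated in intellectual disability in humans, at 0.247 CPM per kb.

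The libraries held between 46456125 and 56541594 reads on listed genes, and 1 read was worth between 0.0180 and 0.0231 CPM. Proximal tubule markers (11 of 11 tested) summed to between 10189 and 42011 CPM, so the tissue matched its label. C replicate 2 stood apart from the other controls. Its proximal tubule sum was the lowest at 10189 CPM, and tubular injury markers summed to 5106 CPM there, against 569 to 663 CPM in C replicates 8 and 9 and 1213 to 2320 CPM in the diabetic libraries. The chi-square per degree of freedom between libraries was 386 and 395 for C replicate 2 against the other controls and 37.3 between those controls. It was 309 between the DM-22 libraries and 65.4 between the DM+SGLT2i libraries, so the DM-22 pair differed almost as much. Proximal tubule markers summed to 21825 and 42011 CPM, and podocyte markers to 300 and 771 CPM, in DM-22 replicates 1 and 2. In 80.6% of all tested genes, and in 70.8% of the tested members, C replicate 2 was nearer to the diabetic mean than to the mean of C replicates 8 and 9. Comparisons with C are therefore given over all 7 libraries and without C replicate 2. Fewer cells of a type and less RNA per cell cannot be told apart in bulk tissue.

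**Figure D1:**
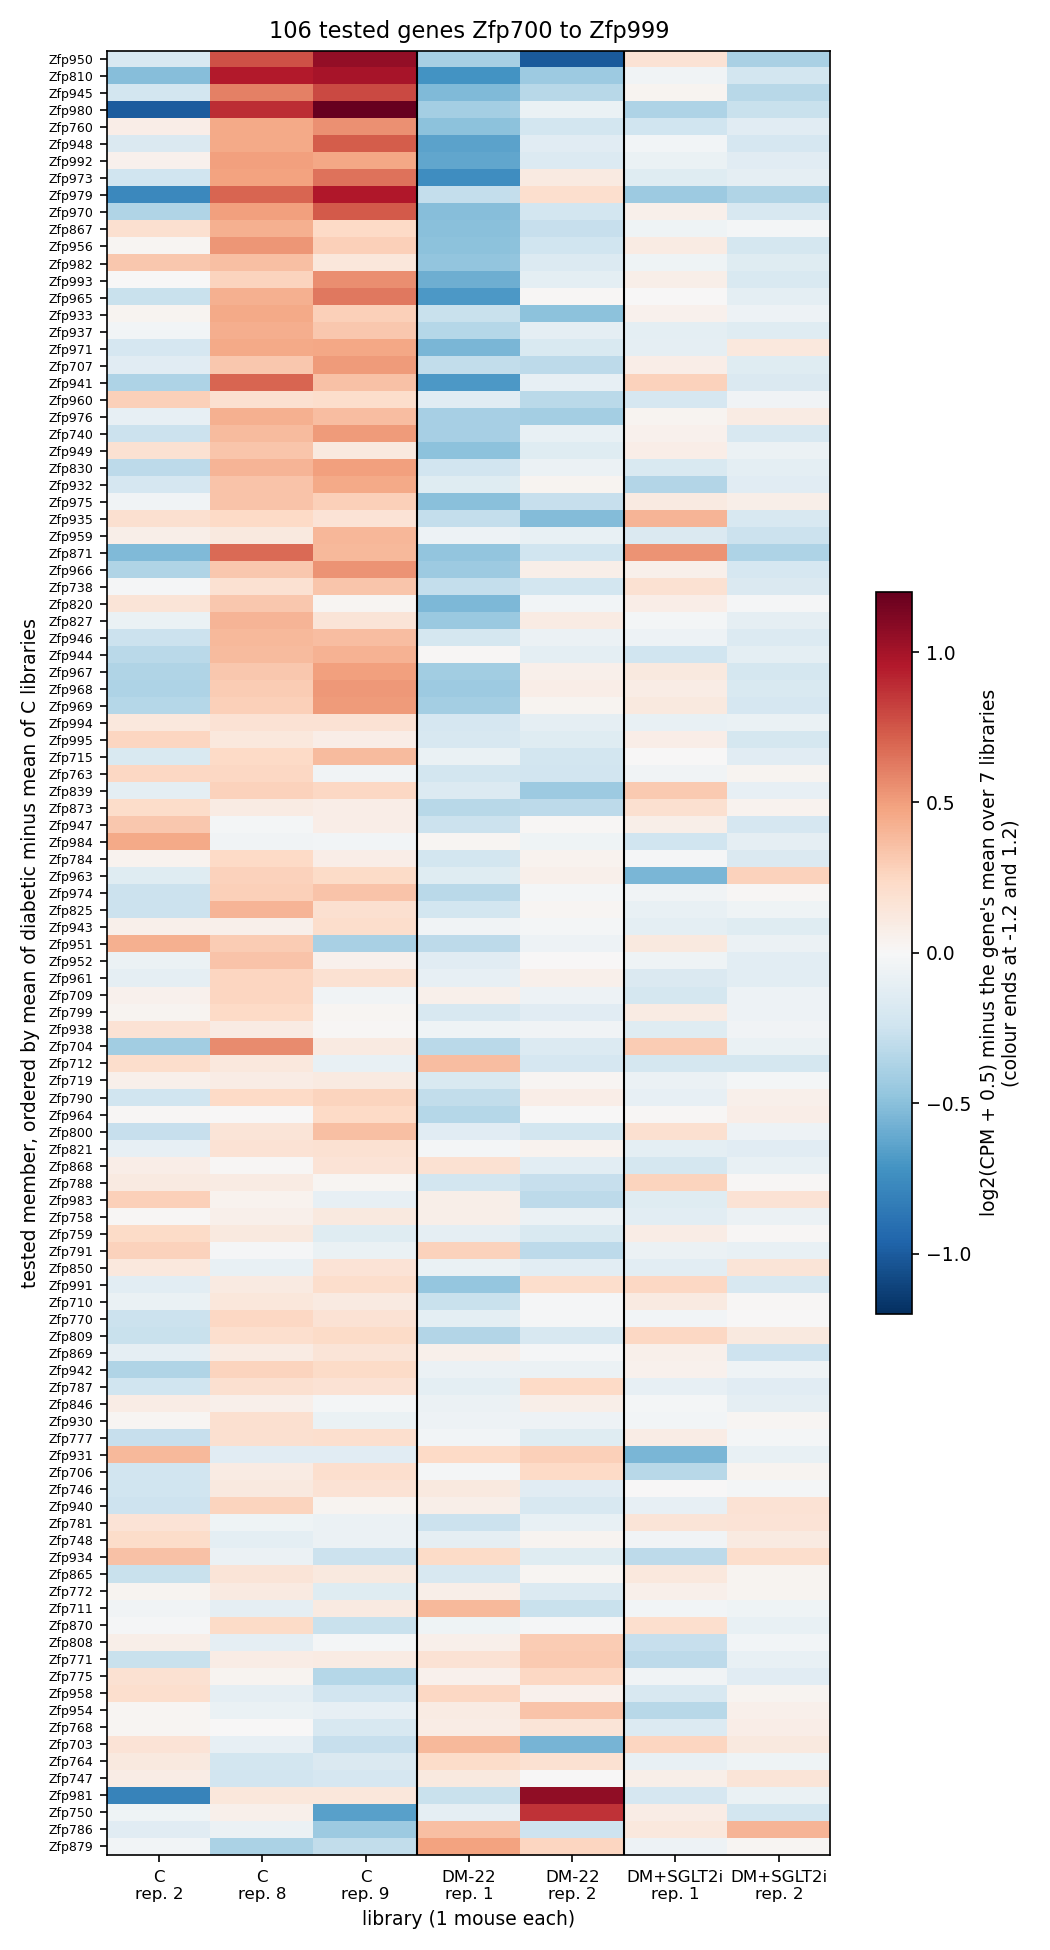
Heat map of the 106 tested members (rows) in 7 libraries (columns), coloured by log2(CPM + 0.5) minus each gene's mean over the 7 libraries. Red is above and blue below that mean. C replicates 8 and 9 are mostly red and DM-22 replicate 1 mostly blue, while C replicate 2 is mixed.

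Set against each gene's own mean over 7 libraries, the median tested member was higher in C replicate 8 by 0.24 and in C replicate 9 by 0.17 on the log2 scale. The median was -0.04 in C replicate 2, -0.19 and -0.07 in DM-22 replicates 1 and 2, and -0.03 and -0.08 in DM+SGLT2i replicates 1 and 2. The controls therefore overlapped the diabetic libraries through C replicate 2. The median over all tested genes stayed between -0.01 and 0.01 in every library. Of 106 members, 32 had their highest value in C replicate 8 and 36 in C replicate 9, and 39 had their lowest value in DM-22 replicate 1. The same counts were not made over all tested genes, so whether they are particular to the members was not tested.

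Of the 5 listed nuclear-retained RNAs, the 3 that were tested varied with the same libraries. Meg3 and Rian, which were below the filter, were instead highest in DM+SGLT2i replicate 1, at 1.21 and 1.17 CPM. Malat1, a long noncoding RNA held in the nucleus, was at 47.5, 292 and 390 CPM in C replicates 2, 8 and 9, at 32.3 and 41.8 CPM in the DM-22 libraries and at 111 and 38.3 CPM in the DM+SGLT2i libraries. The 5 listed RNAs of this list summed to between 95 and 631 CPM in C, between 59.4 and 71.3 CPM in DM-22 and between 92.9 and 212 CPM in DM+SGLT2i. Clock genes that peak opposite to Arntl summed to between 827 and 1255 CPM in C and to between 524 and 886 CPM in the diabetic libraries. The part of these differences in the values of the zinc finger genes was not tested.

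**Figure D2:**
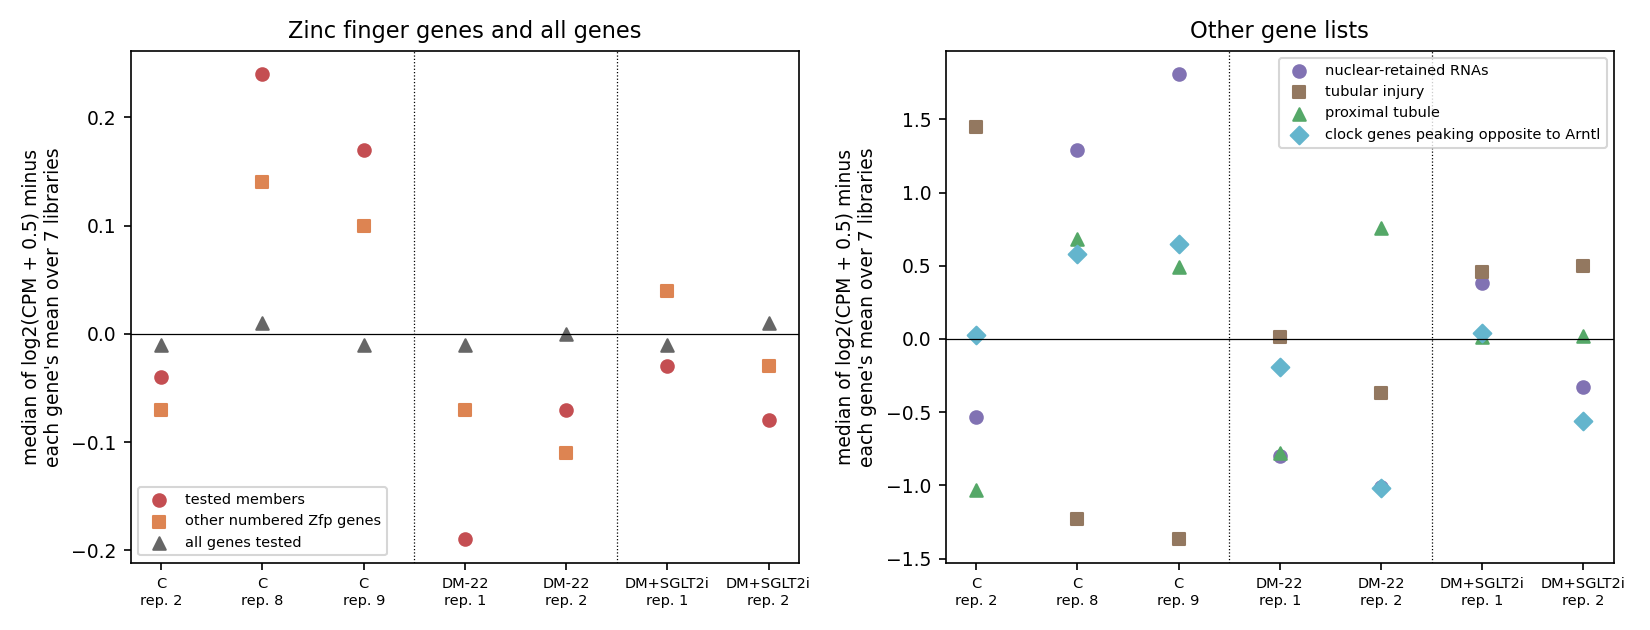
Median of log2(CPM + 0.5) minus each gene's mean over 7 libraries, per library, for the tested members, the other numbered Zfp genes and all tested genes (left) and for 4 other lists (right, on a wider axis). Members lie at 0.24 and 0.17 in C replicates 8 and 9 and below 0 elsewhere. The median of the 3 tested nuclear-retained RNAs is also highest in C replicates 8 and 9.

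Zfp810, a KRAB zinc finger gene with 10 fingers, was at 19.3, 54.2 and 55.4 CPM in C replicates 2, 8 and 9, at 16.6 and 20.3 CPM in DM-22 and at 26.9 and 23.6 CPM in DM+SGLT2i. C replicates 8 and 9 were high, and C replicate 2 lay among the diabetic libraries, so the groups overlap. The means were 43.0 ± 20.5 CPM (SD, n = 3) in C, 18.4 ± 2.56 CPM (SD, n = 2) in DM-22 and 25.3 ± 2.31 CPM (SD, n = 2) in DM+SGLT2i. The log2 difference from C was -1.06 ± 0.45 (SE) in DM-22 and -0.61 ± 0.45 in DM+SGLT2i, and neither passed the threshold (limma, adjusted p = 0.80 and 1.0). Without C replicate 2 the differences were -1.55 ± 0.15 and -1.10 ± 0.15, the smallest p-values of any member, and the adjusted p-values from limma were 0.078 and 0.072.

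The members whose log2 levels over the 7 libraries were most like those of Zfp810 were Zfp970 (r = 0.983), Zfp945 (0.978), Zfp740 (0.972), Zfp946 (0.970) and Zfp707 (0.955). Zfp945, with 18 fingers, was at 7.81, 14.3 and 16.2 CPM in C, at 6.23 and 7.19 CPM in DM-22 and at 9.39 and 7.21 CPM in DM+SGLT2i. Zfp740, in which no KRAB letters were found, was at 43.4, 67.9 and 74.0 CPM in C, at 39.3 and 48.9 CPM in DM-22 and at 53.9 and 45.5 CPM in DM+SGLT2i. In each, C replicate 2 lay within the range of the diabetic libraries and the other controls above it.

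The genes most like Zfp810 among all tested genes were not zinc finger genes named Zfp. They were Ppp1r15b, a regulatory subunit of the phosphatase that acts on eIF2-alpha (r = 0.998), 0610030E20Rik (0.998), Mcc (0.998), Esco1, a cohesin acetyltransferase (0.995), and BC005537 (0.995). Kcnq1ot1, a long nuclear RNA, ranked 16 with r = 0.987. The median correlation with Zfp810 was 0.69 in the other 105 tested members, 0.47 in the 210 other numbered Zfp genes and -0.02 in all tested genes. Of the members 15.2% were above 0.9, beside 16.7% of the other numbered Zfp genes and 6.45% of all tested genes. These 7 points share the 3 groups and the stand-apart control, so the correlations describe these libraries only.

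Untreated diabetes was compared with control kidneys to see which members differ while glucose stays high. No member passed the adjusted threshold in DM-22 against C (0 of 106), nor did any gene (background 0%). At an unadjusted p under 0.05, 14 members (13.2%) were lower and 0 were higher, beside a background of 3.28% of all tested genes lower and 1.19% higher. The log2 difference was below 0 in 88 of 106 members (83.0%) and in 49.3% of all tested genes. Its median was -0.24 in members, -0.15 in the other numbered Zfp genes and 0.00 in all tested genes. Members with KRAB letters had a median of -0.26 (n = 85) and those without one of -0.09 (n = 21). These medians were -0.32 and -0.22 without C replicate 2, and in DM+SGLT2i against C they were then -0.25 and -0.22.

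The count of 14 rested on single libraries, and was 41 without C replicate 2. Without C replicate 8, 2 members (1.89%) were lower beside 1.75% of all tested genes, and without DM-22 replicate 1, 3 members (2.83%) beside 3.58% of all, both near the background. Without C replicate 9 the count was 5 (4.72% beside 0.980% of all). The median over the members stayed between -0.30 and -0.18 with any 1 library left out.

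Zfp867, with 10 fingers and no shared stretches, had the smallest p among the members. It was at 3.72, 4.48 and 3.87 CPM in C, at 2.12 and 2.54 CPM in DM-22 and at 3.07 and 3.16 CPM in DM+SGLT2i. All 4 diabetic libraries lay below all 3 controls. The log2 difference of DM-22 from C was -0.68 ± 0.20 (SE) and did not pass (limma, adjusted p = 0.80).

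Zfp992, of the chromosome 4 cluster, was at 11.9, 16.3 and 15.9 CPM in C, at 7.31 and 10.2 CPM in DM-22 and at 10.8 and 10.3 CPM in DM+SGLT2i, again without overlap between controls and diabetic libraries. Its log2 difference in DM-22 was -0.72 ± 0.22, and 43.0% of its stretches are shared with other genes. Its neighbour Zfp933 was at 7.95, 10.8 and 9.59 CPM in C, at 6.35 and 5.39 CPM in DM-22 and at 8.06 and 7.41 CPM in DM+SGLT2i, a difference of -0.64 ± 0.19 in DM-22. Here C replicate 2 lay just under DM+SGLT2i replicate 1.

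Among the other 11 of the 14 members, Zfp950 had the lowest difference, -1.25 ± 0.41, with 8.67, 17.2 and 21.2 CPM in C and 7.40 and 4.69 CPM in DM-22. The rest of the 14 ranged from -0.82 (Zfp945) to -0.46 (Zfp960). Zfp992, Zfp933, Zfp993 and Zfp982 of the 14 lie in the chromosome 4 cluster.

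The members with the smallest p among those higher in DM-22 were Zfp879, Zfp750 and Zfp764. Zfp879 was at 1.03, 0.695 and 0.769 CPM in C and at 1.67 and 1.36 CPM in DM-22, a log2 difference of 0.61 ± 0.26, without overlap. Zfp750, a factor of epidermal differentiation, was at 8.15, 8.88 and 5.24 CPM in C and at 7.79 and 15.9 CPM in DM-22. Of the 2 DM-22 libraries only replicate 2 was above all controls. Zfp764 was at 8.25, 6.40 and 6.65 CPM in C and at 8.87 and 8.58 CPM in DM-22, a difference of 0.29 ± 0.18. None passed the threshold (limma, adjusted p = 0.80 for each).

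**Figure D3:**
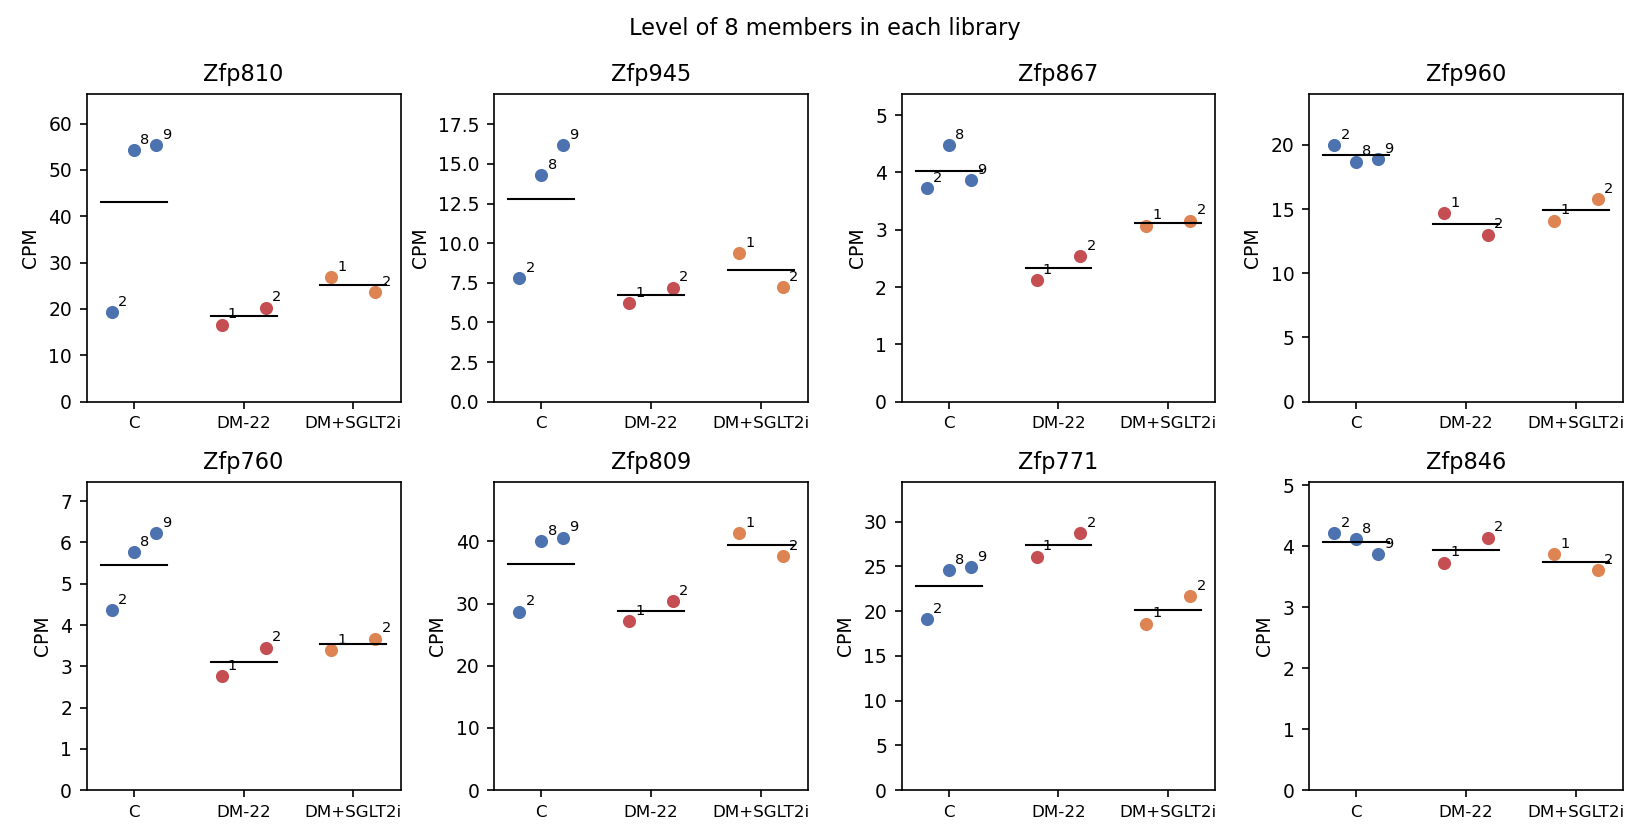
Level in CPM (axis from 0) of 8 members in each library, with points labelled by replicate number and a line at the group mean. In Zfp810 and Zfp945 C replicate 2 lies with the diabetic libraries, in Zfp867, Zfp960 and Zfp760 all controls lie above all diabetic libraries, and Zfp846 stays between 3.61 and 4.21 CPM.

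Treated diabetes was compared with control kidneys to see what remains after glucose lowering. No member and no gene passed the adjusted threshold in DM+SGLT2i against C (0 of 106, background 0%). At an unadjusted p under 0.05, 2 members (1.89%) were lower and 0 higher, beside a background of 0.415% lower and 0.665% higher. The difference was below 0 in 87 of 106 members (82.1%), beside 52.8% of all tested genes. Its median was -0.17, beside -0.05 in the other numbered Zfp genes and -0.01 in all tested genes. The 2 comparisons with C share the same control libraries. The count of 2 was 20 (18.9%, beside 9.14% of all tested genes) without C replicate 2. It was 0 without C replicate 8 (beside 0.25% of all) and 0 without C replicate 9 (beside 0.129%). So few genes were called in those last fits that a count of 0 is near the background.

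These 2 members were Zfp960 and Zfp760. Zfp960 was at 20, 18.7 and 18.9 CPM in C, at 14.7 and 13 CPM in DM-22 and at 14.1 and 15.8 CPM in DM+SGLT2i. Controls and diabetic libraries did not overlap, and C replicate 2 was the highest. The log2 difference was -0.35 ± 0.14 in DM+SGLT2i and -0.46 ± 0.14 in DM-22, and 82.7% of its stretches also occur in other genes, so its reads are uncertain. Zfp760, which shares 0.577% of its stretches, was at 4.36, 5.77 and 6.22 CPM in C, at 2.77 and 3.45 CPM in DM-22 and at 3.39 and 3.67 CPM in DM+SGLT2i. Its log2 difference was -0.55 ± 0.22 in DM+SGLT2i and -0.71 ± 0.22 in DM-22. The third smallest p on this side was that of Zfp959, at 6.40, 6.63 and 8.16 CPM in C and at 5.36 and 4.99 CPM in DM+SGLT2i (-0.41 ± 0.18).

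On the higher side in DM+SGLT2i the smallest p-values were those of Zfp786, Zfp747 and Zfp703. Zfp703, a transcriptional cofactor amplified in human breast cancer, was at 23.7, 19.7 and 17.4 CPM in C and at 25.5 and 23.1 CPM in DM+SGLT2i, and the groups overlapped. The 3 differences were 0.49 ± 0.32, 0.22 ± 0.17 and 0.27 ± 0.29, and none passed the threshold (limma, adjusted p = 1.0 for each). Zfp786 has little depth, between 0.427 and 1.17 CPM.

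**Figure D4:**
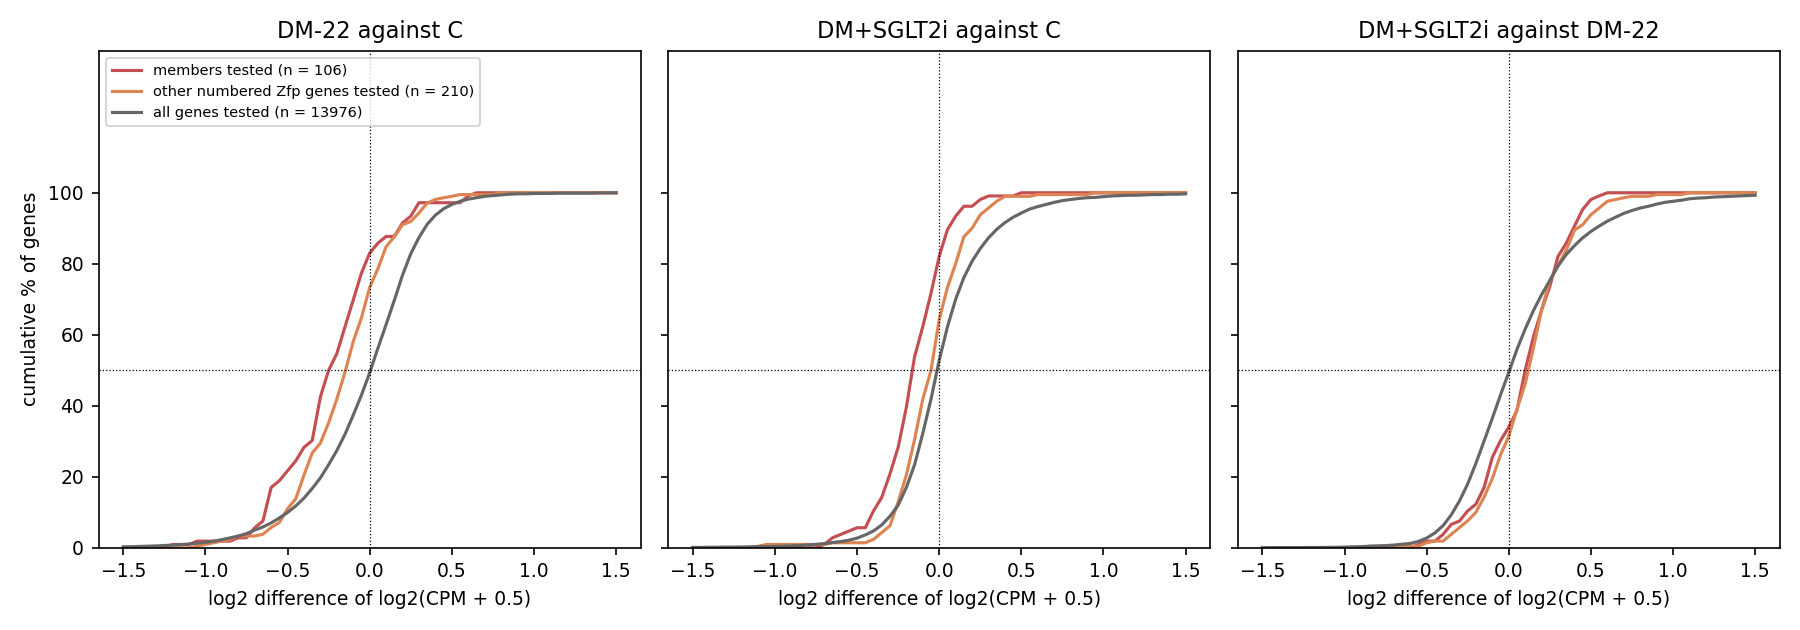
Cumulative % of genes against the log2 difference of log2(CPM + 0.5) in the 3 comparisons, for 106 tested members, 210 other numbered Zfp genes and 13976 tested genes. The member curve lies left of the curve of all genes in both comparisons with C (medians -0.24 and -0.17) and, at its median, right of it in DM+SGLT2i against DM-22 (0.10).

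The treated and untreated diabetic groups were compared directly. In DM+SGLT2i against DM-22 no member passed the adjusted threshold (0 of 106, background 0%) or an unadjusted p under 0.05 in either direction (0 lower and 0 higher), beside a background of 1.66% of all tested genes lower and 2.25% higher. The median difference was 0.10 in members, 0.13 in the other numbered Zfp genes and 0.00 in all tested genes. It was below 0 in 36 of 106 members (34%), beside 31.4% of the other numbered Zfp genes and 49.4% of all tested genes. Without C replicate 2, 2 members (1.89%) were lower and 4 (3.77%) higher, both under the background of 3.89% and 6.86% in that fit, and again 0 members passed the adjusted threshold (background 0%). With library totals in place of TMM factors the median of all tested genes moved to 0.11 and that of the members to 0.19.

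Zfp771, which has 8 fingers and no KRAB letters found, had the smallest p, with 26.1 and 28.7 CPM in DM-22 and 18.6 and 21.7 CPM in DM+SGLT2i. Both untreated libraries were above both treated libraries, a log2 difference of -0.44 ± 0.19 (limma, adjusted p = 0.88). Zfp931 was at 10.5 and 10.9 CPM in DM-22 and at 5.85 and 8.27 CPM in DM+SGLT2i (-0.58 ± 0.27), and Zfp954 at 10.4 and 12.4 CPM against 7.61 and 10.2 CPM (-0.35 ± 0.20).

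In the other direction, Zfp809, the repressor of proviral DNA, was at 27.2 and 30.4 CPM in DM-22 and at 41.3 and 37.6 CPM in DM+SGLT2i, without overlap, a log2 difference of 0.45 ± 0.20. It was at 28.7, 40 and 40.6 CPM in C, so that the treated libraries lay near C replicates 8 and 9. It lies on chromosome 9 (22225714 to 22243354) beside Zfp810. Zfp788 was at 7.47 and 7.17 CPM in DM-22 and at 10.7 and 8.83 CPM in DM+SGLT2i (0.39 ± 0.18). Zfp975 was at 2.72 and 3.26 CPM against 4.42 and 4.30 CPM (0.48 ± 0.23), and its differences of DM-22 and DM+SGLT2i from C were -0.59 ± 0.21 and -0.10 ± 0.21.

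In 13 of the 106 tested members (12.3%) every diabetic library lay below every control, beside a background of 1.38% of all tested genes and 1.90% of the other numbered Zfp genes. In 0 members every diabetic library lay above every control, beside a background of 1.31%. This count was chosen after seeing the data. The 13 members were Zfp719, Zfp760, Zfp784, Zfp867, Zfp937, Zfp938, Zfp943, Zfp949, Zfp959, Zfp960, Zfp982, Zfp992 and Zfp994. Without C replicate 2 the count was 52 (49.1%, beside 20.8% of all tested genes). Without DM+SGLT2i replicate 1 it was 26. No share over all tested genes is given for that count, so it cannot be read as a result about the members.

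The gaps were often small, as in Zfp719, Zfp949 and Zfp994, which are shown here as examples chosen after their values were seen. Zfp719 was at 7.09 to 7.35 CPM in C and at 5.94 to 6.89 CPM in the diabetic libraries. Zfp949, which shares no stretch with another gene, was at 10.4, 11.6 and 9.89 CPM in C, at 6.34 and 8.14 CPM in DM-22 and at 9.63 and 8.64 CPM in DM+SGLT2i. Zfp994, of the chromosome 17 cluster, was at 12.1, 12.4 and 12.4 CPM in C, at 9.50 and 10.2 CPM in DM-22 and at 10.3 and 10.3 CPM in DM+SGLT2i. In Zfp994 all diabetic libraries were close together and the controls closer still.

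Without C replicate 2 the members lay further below control. In DM-22, 41 members (38.7%) were lower and 2 (1.89%) higher at an unadjusted p under 0.05, beside a background of 14.8% lower and 10.4% higher. In DM+SGLT2i, 20 members (18.9%) were lower and 0 higher, beside a background of 9.14% lower and 8.73% higher. No member passed the adjusted threshold in either comparison, beside a background of 0.0143% and 0.122%. The medians over the members were -0.30 and -0.23, beside -0.20 and -0.12 in the other numbered Zfp genes. In 52 members (49.1%) every diabetic library lay below C replicates 8 and 9, beside a background of 20.8% and 35.7% of the other numbered Zfp genes, and in 3 members (2.83%) every diabetic library lay above them, beside a background of 15.1%.

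The members with the smallest p in this fit, after Zfp810, were Zfp945 (-1.13 ± 0.19) and Zfp950 (-1.61 ± 0.29) in DM-22, and Zfp980 (-1.39 ± 0.27) and Zfp979 (-1.23 ± 0.25) in DM+SGLT2i. Zfp980 was at 0.238 CPM in C replicate 2, 2.23 and 3.01 CPM in C replicates 8 and 9, and 0.612 to 0.902 CPM in the diabetic libraries. Zfp979 was at 1.23 CPM in C replicate 2, 4.29 and 5.21 CPM in C replicates 8 and 9 and between 1.66 and 2.89 CPM in the diabetic libraries. In both, C replicate 2 was the lowest of all 7 libraries. Both lie in the chromosome 4 cluster and share 71.3% and 26.7% of their stretches with other genes. Zfp879 (0.71 ± 0.24) and Zfp764 (0.39 ± 0.14) were the 2 higher members in DM-22, and Zfp931 came next at 0.41 ± 0.19. Between the diabetic groups, Zfp976 (0.47 ± 0.17) joined Zfp809 and Zfp810 among the higher members with the smallest p, and Zfp764 (-0.27 ± 0.14) joined Zfp771 and Zfp931 among the lower. On the higher side of DM+SGLT2i against C they were Zfp747 (0.32 ± 0.14), Zfp786 (0.53 ± 0.33) and Zfp879 (0.32 ± 0.24).

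By genomic cluster, the difference of DM-22 from C had its lowest median on chromosome 4, at -0.59 over 9 tested members. Of these, 4 (44.4%) were lower at an unadjusted p under 0.05, beside 3.28% of all tested genes. Among the 4 are Zfp992 and Zfp993, and 54.4% of the stretches of Zfp993 occur in Zfp992. They cannot count as separate observations. The range in this cluster was wide, from -0.72 (Zfp992) to 0.57 (Zfp981). Zfp981 was at 180 CPM in C replicate 2, 343 and 345 CPM in C replicates 8 and 9, 260 and 653 CPM in DM-22 and 271 and 296 CPM in DM+SGLT2i. DM-22 replicate 2 alone was far above the rest.

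The chromosome 2 cluster had a median of -0.36 over 9 tested members, of which 8 were below 0 and 0 passed an unadjusted p under 0.05. Its median was -0.62 without C replicate 2 and 8 of 9 were lower at that level, beside 14.8% of all tested genes. Of its 9 tested members, the 6 genes Zfp965, Zfp966, Zfp967, Zfp968, Zfp969 and Zfp973 share between 84.7% and 100% of their stretches with other genes and cannot count as separate observations. Zfp970 and Zfp971 share 49.5% and 51.1% with other genes, and 24.4% and 28.2% of their stretches occur in Zfp968. Zfp931 of the same cluster went the other way, at 0.23 ± 0.24. The 13 members of the larger chromosome 17 cluster were all below 0 in both comparisons with C, beside 49.3% and 52.8% of all tested genes. Their medians were -0.31 and -0.24. The 4 members of the chromosome 7 cluster at 127244274 to 127406822 (Zfp747, Zfp764, Zfp768 and Zfp771) were all above 0 in DM-22, with a median of 0.22, and had a median of 0.02 in DM+SGLT2i. The 44 tested members outside clusters had medians of -0.22 and -0.13.

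**Figure D5:**
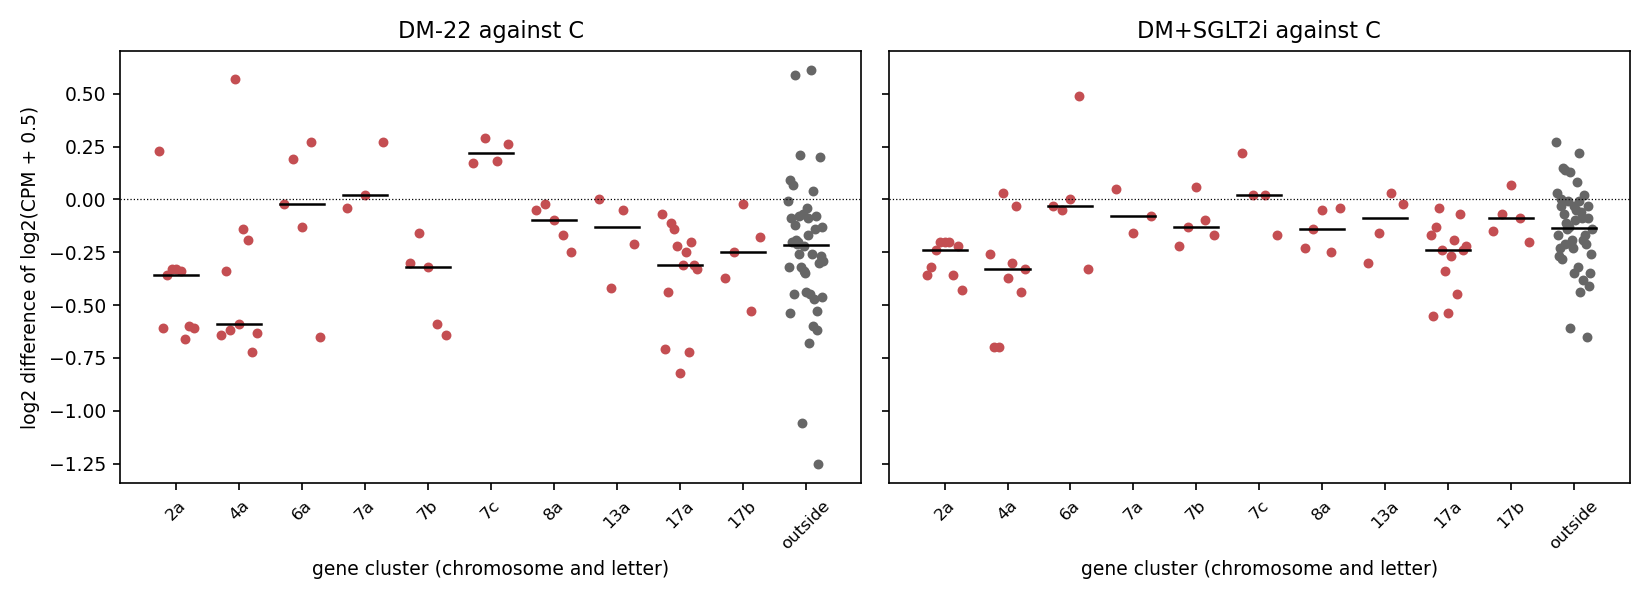
Log2 difference of log2(CPM + 0.5) for each tested member, by genomic cluster (named by chromosome and a letter) and outside clusters, with a line at the median, for DM-22 and DM+SGLT2i against C. Clusters 4a and 2a have the lowest medians in DM-22 (-0.59 and -0.36), and all 4 members of cluster 7c are above 0 there.

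Members differed in how much they varied. Among the 85 members with a mean of at least 3 CPM, the largest SD of log2(CPM + 0.5) over the 7 libraries was that of Zfp950 (0.72), then Zfp810 (0.70) and Zfp981 (0.57). The smallest were those of Zfp846 (0.07), Zfp758 (0.09) and Zfp930 (0.09). Zfp846, with 14 fingers, was at 4.21, 4.11 and 3.87 CPM in C, at 3.73 and 4.14 CPM in DM-22 and at 3.87 and 3.61 CPM in DM+SGLT2i. Zfp758 stayed between 9.88 and 11.9 CPM and Zfp930 between 4.30 and 5.31 CPM in all libraries. The median SD was 0.236 in tested members and 0.261 in all tested genes.

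The proteins through which KRAB zinc fingers silence their sites were looked at as a list of 44 genes, of which 42 were tested. The list also holds Zfp57 and Zfp445, which are zinc finger genes themselves and are among the other numbered Zfp genes. Trim28 was at 96.2, 95.5 and 86.0 CPM in C, at 104 and 107 CPM in DM-22 and at 94.5 and 96.4 CPM in DM+SGLT2i, with log2 differences from C of 0.19 ± 0.12 and 0.05 ± 0.12. Setdb1 was at 23.8, 29.4 and 31.3 CPM in C and between 26.5 and 28.3 CPM in the diabetic libraries, with differences of -0.06 ± 0.16 and -0.02 ± 0.16. Dnmt1, the maintenance DNA methyltransferase, was at 24.7, 30.1 and 27.3 CPM in C, at 22.8 and 22.9 CPM in DM-22 and at 32.8 and 28.4 CPM in DM+SGLT2i. DM-22 was low and did not overlap DM+SGLT2i.

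No gene of the list passed the adjusted threshold in any comparison. At an unadjusted p under 0.05, Sumo3 (0.40 ± 0.17) was higher and Morc3 (-0.50 ± 0.19) lower in DM-22 against C, and 0 genes differed in DM+SGLT2i against C. In DM-22 against C this was 2.38% of the list in each direction, beside 1.19% of all tested genes higher and 3.28% lower. In DM+SGLT2i against DM-22, Dnmt1 (0.41 ± 0.16) and Hells, a chromatin remodeller (1.01 ± 0.42), were among the genes that differed, both higher. There 4.76% of the list was higher and 2.38% lower, beside 2.25% and 1.66% of all tested genes. Without C replicate 2 the counts in DM-22 against C were 2 higher (4.76% of the list, beside 10.4% of all tested genes) and 7 lower (16.7% beside 14.8%). In DM+SGLT2i against C they were 1 higher (2.38% beside 8.73%) and 2 lower (4.76% beside 9.14%). These shares in the comparisons with C lay near or under those of all tested genes. In DM+SGLT2i against DM-22 in the same fit they lay above, at 9.52% higher beside 6.86% and 9.52% lower beside 3.89%. Without C replicate 2, the genes lower in DM-22 against C included Fam208a, the TASOR subunit of the HUSH complex (-1.60 ± 0.17), and Pogz (-0.52 ± 0.12). Fam208a was at 21.7 CPM in C replicate 2, 59.4 and 71.6 CPM in C replicates 8 and 9 and 20.7 to 35.9 CPM in the diabetic libraries. Zfp57 (-0.83 ± 0.26) and Zfp445 (-0.77 ± 0.20), which guard imprints, were also among these 7. The list's median difference over all 7 libraries was -0.03 and -0.04, beside -0.24 and -0.17 in the members.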

How the data were processed

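The authors deposited log2 values of library-scaled counts (CPM, TMM factors) with a small constant, for 17537 genes. The submitters' notes name bcl2fastq, FastQC, Trim Galore, STAR, edgeR and mm10, without versions. The constant (-4.66 on the log2 scale) was subtracted after undoing the logarithm. Every value (100%) then equalled a whole number of reads within 0.05. The design had assumed CPM.

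Groups were compared by limma 3.58.1 (R 4.3.3; trend, 3 groups fitted together, two-sided) on log2(CPM + 0.5), which compresses low levels. Benjamini-Hochberg adjustment ran over 13976 genes, with a threshold of 0.05. The fit was checked on simulated data. 1 result on a gene of the cofactor list is not reported here. With 1 library per mouse, p-values measure the spread between these libraries. Alternatives changed the pseudocount, filter, scaling, test, samples or block.

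The members and gene lists were chosen with earlier results of these data known. Named members are Zfp810, the 3 with the smallest p per direction, comparison and control set, the 5 highest and 3 lowest per length, the 5 most like Zfp810, and the 3 most and least variable. Identifiers, positions and coding sequences are from GENCODE M21 (GRCm38). Python 3.11.15, numpy 2.4.6, pandas 2.3.3 and matplotlib 3.10.9 were used.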

Additional observations from a re-analysis of the deposited data

How the results depend on the processing

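The count of members past the adjusted threshold was 0 in all 3 comparisons under every alternative run. The median difference of the members kept its direction, between -0.31 and -0.18 in DM-22 against C, between -0.23 and -0.12 in DM+SGLT2i against C, and between 0.03 and 0.19 in DM+SGLT2i against DM-22. The 29 named differences kept their direction in all 410 alternatives run on them, and 0 crossed the adjusted threshold.

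Counts at an unadjusted p under 0.05 did move, as did the shares of all tested genes, and the cause was not tested. With 1 control left out, the members lower in DM-22 against C numbered between 2 and 41, beside 0.98% to 14.8% of all tested genes. Those higher numbered between 0 and 2, and the 2 without C replicate 2 stood beside 10.4% of all tested genes. Those lower in DM+SGLT2i against C numbered between 0 and 20, beside 0.129% to 9.14% of all tested genes. In DM+SGLT2i against DM-22 between 0 and 2 were lower, beside 0.637% to 3.89% of all. There between 0 and 4 were higher, and the 4 without C replicate 2 stood beside 6.86% of all. Without the filter on low values or with voom, 1 member was higher in DM-22 against C. With a mean of at least 3 CPM, with library totals or with voom, 1 was lower in DM+SGLT2i against C. The shares of all tested genes lower were then 0.502%, 0.444% and 0.365%. In DM+SGLT2i against DM-22, 1 was higher without the filter, 2 with library totals and 1 with only the groups compared. There 1 was lower with a mean of at least 3 CPM (beside 2.03% of all) and 1 with only the groups compared (beside 1.04%). The replicate block, fitted for the diabetic groups alone, gave 1 higher and 0 lower (beside 1.14% of all lower). Its median was 0.10, with 0 past the adjusted threshold. For the higher members under these changes of processing no share of all tested genes is given. Those counts cannot be read as results about the members. Libraries of equal replicate number showed no shared deviation, with a correlation of -0.0412. This 1 correlation cannot show whether the numbers paired the libraries.

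The 14 members below the filter were tested only where no filter was used, and rest on few reads. Leaving out 1 library of a diabetic group leaves 1, which is assumed to vary like the other groups.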

Other observations

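Marker lists of other cells were summed in each library. Adipose tissue markers summed to 1090 CPM in DM+SGLT2i replicate 1 and to between 34.1 and 79.8 CPM in the other 6 libraries. Urothelium markers summed to 146 CPM in that library, to 61.8 CPM in C replicate 2 and to between 2.36 and 20.4 CPM elsewhere. Macrophage markers summed to 584 CPM in C replicate 2 and to between 151 and 345 CPM elsewhere. Fibroblast markers summed to 711 CPM in C replicate 2, to 564 and 429 CPM in DM+SGLT2i and to between 150 and 251 CPM elsewhere. Of these markers, 4 of 7 (57.1%) were higher in DM+SGLT2i than in DM-22 at an unadjusted p under 0.05, beside 2.25% of all tested genes. None passed the adjusted threshold, and the median log2 difference was 1.29. Immediate early genes summed to 3652 CPM in C replicate 9 and to between 143 and 352 CPM elsewhere. Zfp810 was high in C replicates 8 and 9 alike, at 54.2 and 55.4 CPM. Thick ascending limb markers summed to 15099 CPM in DM-22 replicate 1 and to between 4788 and 8860 CPM elsewhere. The part of these differences in the members' values was not tested.

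Members with an expression above the median of the group and those at or below it had medians of -0.22 and -0.25 in DM-22 against C. Members with at least 5% of their stretches shared with another gene had a median of -0.28 (n = 46), and those with less had one of -0.20 (n = 60). In DM+SGLT2i against C these medians were -0.20 and -0.11.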
